A study of Mus musculus with 6 samples.

Results

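The natriuretic peptide and Acta1 high cardiomyocytes (CMs) were the tenth of each library with the largest share of their unique molecular identifiers (UMIs, 1 per captured mRNA molecule) in 8 genes combined. These genes were Nppa, Nppb, Acta1, Ankrd1, Xirp2, Casq1, Cnn1 and Clu. A cell counted as a CM when it held at least 1 UMI of each of Tnni3, Tnnt2, Actc1 and Tnnc1, which left 30733 CMs of 31156 cells. The high CMs numbered 3073 and were described against the other 27660 CMs of the same 6 libraries. Wherever 6 values follow each other, they stand for the 2n and then the 4n library of each age, from E16.5 over P1 to P5, and these libraries held 570, 488, 734, 475, 441 and 365 high CMs. Because the 8 genes chose the high CMs, their levels below are a description and carry no test.

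The study sorted left ventricular CMs of C57BL/6J mice at embryonic day E16.5 and at postnatal days P1 and P5 into diploid (2n) and tetraploid (4n) fractions. No group received a treatment or carried an engineered allele. Viability-stained, methanol-fixed cells were sorted on a stain for the myosin heavy chain MYH1 and on Hoechst DNA content, so 4n cells include replicated cells, binucleated cells and any pair of 2n cells that passed as 1 event. Each age and ploidy was 1 library made by droplet 3' tagging and pooled from 3 sorts of separate litters, with no map from cells to litters, so no comparison between groups was tested and intervals cover counting error only. The libraries held 14714566, 13213992, 16576848, 19714177, 17992590 and 18433034 UMIs. No doublet caller was run, and libraries shared 17 to 62 cell barcodes per pair, at most 1.22% of the smaller library.

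Natriuretic peptides are hormones that the heart releases when its wall is stretched. In the embryo Nppa marks the muscle of the forming chambers, that is the atria and the trabecular layer of the ventricle, and in the adult it is kept mainly by the atria. Nppb, the skeletal actin gene Acta1 and the ankyrin repeat protein gene Ankrd1 belong to the so-called fetal program, which ventricular muscle uses before birth and takes up again under load. Their promoters are textbook examples of muscle gene control, with sites for GATA factors, for TEAD factors (the M-CAT element) and, in actin genes, for serum response factor (the CArG box).

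The 250 bases before the RefSeq start of the 4 genes that held most of the UMIs of the choice, or gave it its name, are shown 5' to 3' on the strand of the gene (RefSeq, GRCm38.p6). Capitals mark matches to GATAA, which reads TTATC on the other strand, to the M-CAT core CATTCC, which reads GGAATG there, to TATAAA, which reads TTTATA there, and to the CArG box.

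Nppa: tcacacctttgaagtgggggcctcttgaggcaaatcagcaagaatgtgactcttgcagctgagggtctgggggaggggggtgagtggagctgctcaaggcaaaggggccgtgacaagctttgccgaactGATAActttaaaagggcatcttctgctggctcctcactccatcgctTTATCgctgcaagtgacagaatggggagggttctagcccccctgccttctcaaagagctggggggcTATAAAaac
Nppb: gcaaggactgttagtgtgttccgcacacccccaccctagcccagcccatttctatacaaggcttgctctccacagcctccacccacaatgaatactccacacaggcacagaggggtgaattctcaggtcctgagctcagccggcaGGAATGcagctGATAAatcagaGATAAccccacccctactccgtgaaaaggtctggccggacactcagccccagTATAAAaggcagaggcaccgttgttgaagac
Acta1: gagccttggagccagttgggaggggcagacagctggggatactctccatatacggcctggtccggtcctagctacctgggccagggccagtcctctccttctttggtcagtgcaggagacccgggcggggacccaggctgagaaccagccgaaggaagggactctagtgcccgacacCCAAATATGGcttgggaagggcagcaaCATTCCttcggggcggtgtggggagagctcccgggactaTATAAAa
Ankrd1: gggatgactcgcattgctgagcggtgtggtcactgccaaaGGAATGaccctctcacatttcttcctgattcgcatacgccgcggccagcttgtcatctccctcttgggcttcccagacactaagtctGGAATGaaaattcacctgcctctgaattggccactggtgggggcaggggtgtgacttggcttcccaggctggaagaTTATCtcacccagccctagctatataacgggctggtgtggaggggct

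The windows lie at chr4:148000472-148000721 (plus strand) for Nppa, at chr4:147985650-147985899 (plus) for Nppb, at chr8:123894776-123895025 (minus) for Acta1 and at chr19:36119845-36120094 (minus) for Ankrd1. Nppa and Nppb are neighbours on chromosome 4. In the Ensembl gene models the Nppb gene begins within its window and the Ankrd1 gene begins upstream of its window. The Acta1 gene begins there downstream of its window, at base 123894751. The Casq1 gene also begins downstream of its window, and the Cnn1 gene within its window. All distances here are to the RefSeq start. The Nppa window held GATAA 121 bases and TTATC 75 bases before the start, and TATAAA 9 bases before it. In the Nppb window GGAATG stood 105 bases before the start, GATAA 94 and 83 bases before it and TATAAA 31 bases before it. The CArG box of Acta1 began 73 bases before the start, its CATTCC 46 bases and its TATAAA 7 bases before it. Ankrd1 held GGAATG 210 and 123 bases and TTATC 47 bases before the start. Of the other genes, Casq1 held a TTATC 112 bases before the start, and the windows of Xirp2 and Cnn1 held none of these letters. Of the 8 genes 7 matched an entry of the table, all but Clu. Of 32851 promoter windows of the same length, 22.6% held the GATA letters, 12.6% the M-CAT letters, 12.4% the TATA letters and 1.47% a CArG box. The matches did not overlap each other and are matches of letters, not measured binding.

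The share of a CM's UMIs in the 8 genes rose smoothly along the CMs of a library, with no gap at the limit of the class. The lowest share among the high CMs was 1.13133%, 0.858086%, 0.667161%, 0.542823%, 0.749543% and 0.668524%. The highest share just outside was 1.13078%, 0.856672%, 0.666667%, 0.542406%, 0.748934% and 0.663093%. Since the limit was set at a fixed share of the CMs, the class is a range of the score, and these neighbouring values do not show whether it holds a separate type. Within 10% of the limit lay 56 to 74 high CMs and 54 to 104 other CMs of a library. The median share at E16.5 was 1.83% in high against 0.187% in other CMs of the 2n library and 1.40% against 0.154% in the 4n library. At P1 the medians were 1.24% against 0.0707% in 2n and 0.997% against 0.0677% in 4n CMs. At P5 they were 1.08% against 0.169% in 2n and 0.928% against 0.154% in 4n CMs. Single CMs reached 6.71% to 10.2%. At the other end, 27.8% of the CMs of P1-2n and 19.3% of P1-4n held no UMI of any of the 8 genes, against 5.53% to 13.1% in the other libraries. The high CMs held 47.9%, 51.8%, 63.4%, 57.7%, 41.6% and 38.81% of all 8-gene UMIs of the CMs, with the largest parts at P1. Sparse counts raise this part as well, and the median share of the other CMs was lowest at P1. Counting and a real unevenness between CMs cannot be told apart here. The high CMs were also somewhat deeper, with a median of 2516, 2336, 2262, 4052, 4066 and 5236 UMIs against 2200.0, 2171.5, 1801, 3106, 3728 and 4608 in the other CMs. The part of depth in the results was not tested beyond thinning every CM to 1000 UMIs.

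**Figure D1:**
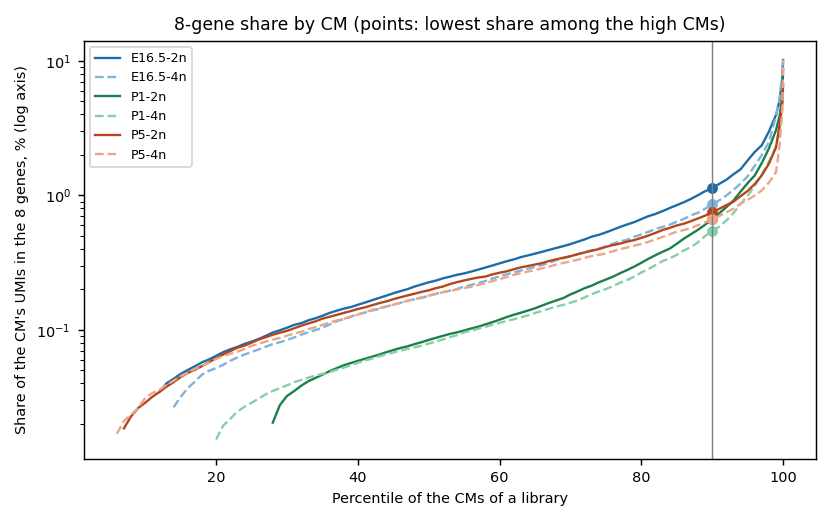
Share of each CM's UMIs in the 8 genes (percent, log axis) against the percentile of the CM in its library, 1 line per library, CMs at 0 not drawn. Points mark the lowest share among the high CMs, from 0.542823% in P1-4n to 1.13133% in E16.5-2n, and the lines pass through the limit without a step.

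Levels are given as CPM, the UMIs of a gene per 1000000 UMIs outside the 8 genes, summed over the CMs of a class, and a log2 ratio is high over other CMs of the same library. Nppa encodes the precursor of atrial natriuretic peptide. Its level in the high CMs was 14233, 13595, 12630.4, 9025, 7023 and 4063 CPM. The other CMs held 595, 489, 508, 479, 270.4 and 238 CPM, so the high CMs were 17.1 to 27.8 times higher. The level was lowest at P5 in both classes, and lower in 4n than in 2n CMs at each age. Nppb, which encodes the precursor of brain natriuretic peptide, was at 1554, 1021, 859.6, 863, 1559 and 1539 CPM in the high CMs and at 366, 208, 121, 129, 300.2 and 259 CPM in the other CMs. It was lowest at P1 in both classes, and the high CMs were 4.25 to 7.13 times higher. Clu encodes clusterin, a secreted chaperone, and had the smallest median fold of the 8 genes, 2.00 (1.67 to 2.89).

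Ankrd1 encodes a protein of the Z-disc and nucleus that binds titin and responds to stretch. Its level in the high CMs was 6344, 4793, 2971, 2340.5, 4982 and 4952 CPM. In the other CMs it was 1816, 1387, 562, 476, 1534 and 1393 CPM, which is 3.25 to 5.29 times lower. Both classes were lowest at P1. Xirp2, an actin-binding protein of the intercalated disc, was at 9.80 to 26.4 CPM in the high CMs before P5 and at 125 and 127 CPM at P5, and the other CMs held 1.47 to 36.0 CPM.

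Acta1 encodes skeletal alpha-actin, the actin isoform that the fetal heart mixes with cardiac actin. It was at 460.1, 223, 227, 112, 339 and 489 CPM in the high CMs and at 119.5, 72.8, 42.2, 38.6, 101 and 125 CPM in the other CMs, 2.90 to 5.37 times lower. Cnn1, the smooth muscle calponin that binds actin, was at 159 and 104 CPM in the high CMs at E16.5 and at 6.17 to 31.5 CPM after birth. Casq1, the skeletal calsequestrin that binds calcium in the sarcoplasmic reticulum, was at 27.8 to 90.1 CPM in the high CMs and at 6.86 to 30.4 CPM in the other CMs. The marker genes of the CM filter differed far less. Cardiac actin Actc1 was 1.25 to 1.36 times higher in the high CMs, Tnni3 stood at 0.920 to 0.984 times, Tnnt2 at 0.967 to 1.12 times and Tnnc1 at 1.013 to 1.18 times the level of the other CMs.

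**Figure D2:**
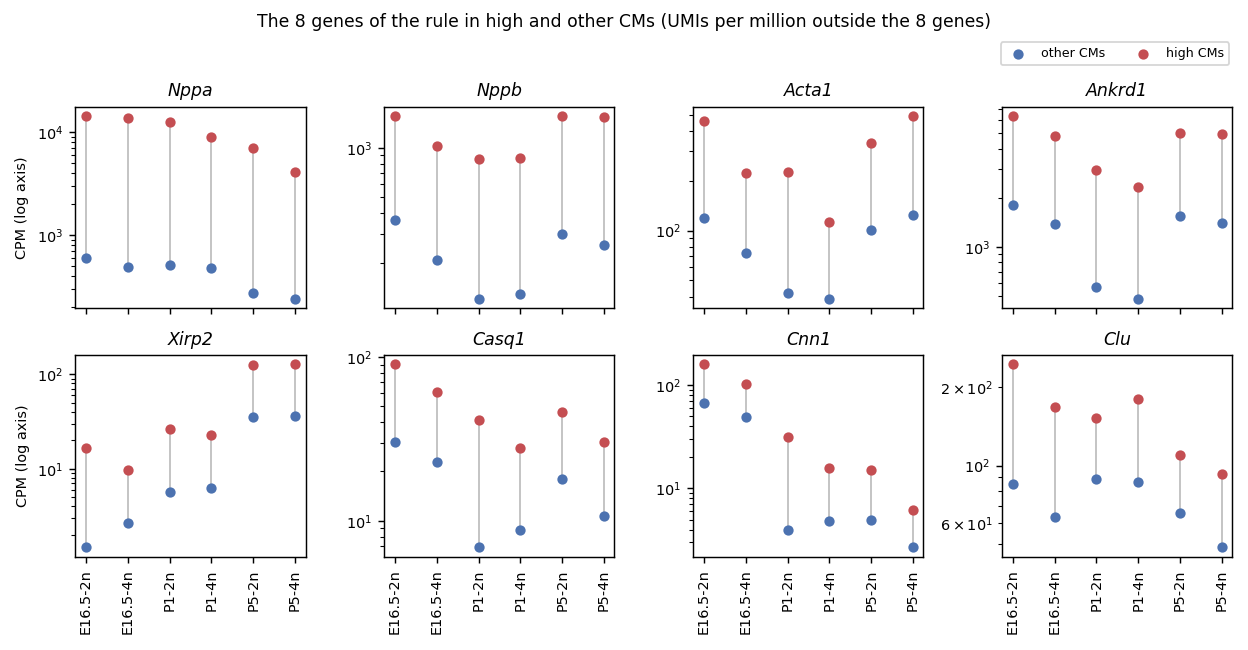
CPM (log axis) of each of the 8 genes in the high CMs (red) and the other CMs (blue) of the 6 libraries, 1 value per class and library with no error bar. The red point lies above the blue point for every gene and library, with the widest gap for Nppa, 17.1 to 27.8 times.

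The name of the class needs a qualification. A count of 3' tags does not depend on transcript length, so the genes can be compared as shares of the 8-gene UMIs. In the high CMs Nppa held 61.6%, 68.1%, 74.6%, 71.7%, 49.5% and 36.0% of them, and Ankrd1 27.5%, 24.0%, 17.5%, 18.6%, 35.1% and 43.8%. Nppb held 5.07% to 13.6% and Acta1 0.890% to 4.33%. Counted per CM, Nppa had the most UMIs of the 8 genes in 358, 318, 566, 372, 207 and 114 high CMs of the libraries. Ankrd1 led 199, 156, 145, 89, 213 and 227. Acta1 led 0 to 8 high CMs of a library and Nppb 1 to 11. The class was thus one of Nppa-led and Ankrd1-led CMs, and in P5-4n the Ankrd1-led CMs were the majority.

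**Figure D3:**
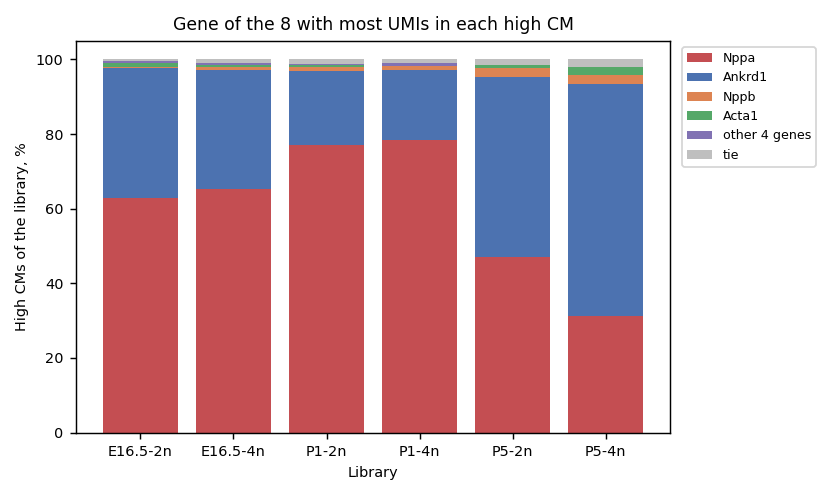
Percent of the high CMs of each library in which each of the 8 genes had the most UMIs, with ties in grey. Nppa led most high CMs at E16.5 and P1, and Ankrd1 led 227 of 365 in P5-4n.

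Each of the 8 genes was also measured in CMs chosen on the 7 other genes. All 8 genes were then still higher in the high CMs in 6 of 6 libraries. The 8 genes were chosen with earlier results of these data known, so these values are a description and carry no test. The median log2 ratio over libraries was 1.86 for Nppa (1.13 to 1.94), 2.08 for Nppb (1.82 to 2.58), 1.32 for Acta1 (1.03 to 1.87) and 0.97 for Ankrd1 (0.82 to 1.49). It was 1.82 for Xirp2, 1.39 for Casq1, 1.29 for Cnn1 and 0.64 for Clu. Without Nppa, 45.9% to 72.3% of the high CMs were chosen again, and without Acta1 95.3% to 98.7%. With the UMIs of each CM split at random, 72.8% to 81.3% of the CMs chosen on 1 part were also chosen on the other. The tops of single genes met only in part. Sets of 10% each that were unrelated in every way, depth included, would share 10% of their CMs. The tops were taken without thinning, and depth affects which CMs show a sparse gene. The 10% is therefore a rough mark, and the part of depth in these overlaps was not tested. The top 10% of the CMs for Nppb and for Ankrd1 shared 32.3% to 45.1% of their CMs, those for Nppa and Nppb 24.7% to 31.1% and those for Nppa and Ankrd1 17.0% to 23.2%. At E16.5 and P5 the top 10% for Acta1 shared 11.4% to 21.1% with that for Nppa, 11.9% to 17.0% with that for Nppb and 10.9% to 17.4% with that for Ankrd1, so the lowest of these lay near 10%. At P1 too few CMs held an Acta1 UMI to fill the top 10%, short by 227 CMs in the 2n and 9 in the 4n library, and no overlap is given. These shares are of each list, since both hold the same number of CMs.

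Outside the 8 genes, a gene was read in a library when its CMs held at least 200 UMIs of it, and was counted as apart at 1.5-fold. In the 2n CMs of E16.5 145 of 5920 genes were higher in the high CMs (2.45%) and 211 lower (3.56%). In their 4n counterparts the counts were 131 (2.23%) and 232 (3.94%) of 5883 genes. P1-2n had 102 higher (1.85%) and 181 lower (3.29%) of 5499, and P1-4n 71 (1.11%) and 230 (3.61%) of 6370. P5-2n had 100 higher (1.79%) and 257 lower (4.60%) of 5591, and P5-4n 68 (1.18%) and 362 (6.28%) of 5761. For every gene counted as higher the counting interval lay above 0, while of those counted as lower 150 to 297 per library had an interval below 0. The genes read split almost evenly by sign, with 45.8% (P5-4n) to 51.2% (E16.5-2n) of them above 0 in a library. The high and other CMs thus differed in few genes beyond the chosen ones. Of 4845 genes read in all 6 libraries, 379 (7.82%) were above 0 in every library and 312 (6.44%) below 0. Only 4 genes (0.0826%) were at least 1.5-fold higher in all 6 libraries, namely Slc6a6, Tceal7, Myl9 and Tnfrsf12a, and 6 genes (0.124%) lower, namely Hey2, Hba-a1, Hbb-bt, Hba-a2, Dcn and Postn. With Nppa left out of the score, 9 genes were 1.5-fold higher in all 6 libraries, 2 of them among the 4, and 0 lower, and with Ankrd1 left out 1 was higher and 1 lower, each among those named.

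Slc6a6, the taurine transporter, was furthest above 0 when genes were ranked by their smallest ratio over the 6 libraries. It was at 83.8, 66.5, 46.2, 58.2, 31.1 and 35.5 CPM in the high CMs and at 21.1, 22.4, 16.6, 28.9, 17.1 and 18.3 CPM in the other CMs. Its log2 ratio ran from 1.99 (interval 1.68 to 2.30) in E16.5-2n down to 0.86 (0.42 to 1.27) in P5-2n. Chosen without Nppa, the high CMs of P1-4n had a ratio of -0.04 for Slc6a6. Tnfrsf12a, the receptor of the cytokine TWEAK, was at 382, 303, 225, 229, 391 and 391 CPM against 223, 197, 86.6, 90.2, 176 and 169 CPM. Its ratio was widest at P1, with log2 values of 1.38 and 1.35. Myl9, a regulatory light chain of smooth muscle and nonmuscle myosin, was at 595 to 1677 CPM in the high CMs and had log2 ratios of 0.64 to 1.12. Tceal7, a small nuclear protein of the elongation factor A-like family, had ratios of 0.80 to 1.61.

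Further down this order stood Myl4, the atrial essential light chain, which was at 4414, 3537, 566, 371, 96.9 and 58.6 CPM in the high CMs and at 1885, 1432, 134, 125, 75.4 and 43.7 CPM in the other CMs. At P5 the classes thus came close, and both held little of it. Csrp3, the muscle LIM protein of the Z-disc, was at 4263 against 2879 CPM in E16.5-2n and at 2721 against 1889 in P5-4n, with log2 ratios of 0.38 to 0.57. Pdlim7, a LIM protein of actin cables, had ratios of 0.40 to 1.05, and Actc1 0.33 to 0.45. At the membrane, Murc, a coat protein of muscle caveolae, had ratios of 0.42 to 0.96, the sarcolemma-associated protein gene Slmap 0.34 to 0.58 and talin Tln1, which ties integrins to actin, 0.33 to 0.43. Arhgef6, an exchange factor for small GTPases, was above 0 in all 6 libraries (0.35 to 0.61), but its interval was beyond 0 in 2 of them.

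Gpx3, the secreted glutathione peroxidase, was at 354, 330.4, 55.8, 96.4, 29.99 and 43.7 CPM in the high CMs and at 81.6, 69.0, 25.7, 45.7, 20.6 and 29.2 CPM in the other CMs. Its ratio was widest at E16.5 (2.12 and 2.26). Ctgf, a matricellular target of YAP and TEAD, had ratios of 0.52 to 0.91 before P5 and of 1.51 and 1.11 at P5. Chosen without Ankrd1, the high CMs of P1-2n had a ratio of -0.04 for Ctgf. Tgm2, the tissue transglutaminase, had ratios of 0.42 to 1.17, the widest of them in P1-2n.

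Among the lower genes, Hey2, a Notch-related repressor of the outer compact wall, was at 47.3, 57.4, 29.9, 29.1, 10.7 and 13.4 CPM in the high CMs and at 98.3, 97.4, 61.6, 57.4, 23.6 and 22.2 CPM in the other CMs. While the level of Hey2 in all CMs was lower at each later age, its log2 ratio lay between -1.14 and -0.73 in every library. H19, an imprinted noncoding RNA of fetal tissue, had ratios of -0.45 to -0.66 in 5 libraries and -2.19 in P5-2n. Marcks, an actin-linked substrate of protein kinase C, had ratios of -0.41 to -0.79. Igfbp4, Tm4sf1, the water channel gene Aqp4 and the growth factor gene Ptn were below 0 in all 6 libraries, with an interval below 0 in 5, 3, 4 and 5 of them. The other 8 of the 15 genes named in this direction were haemoglobin and fibroblast matrix genes, which are described with the markers of other cells below.

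**Figure D4:**
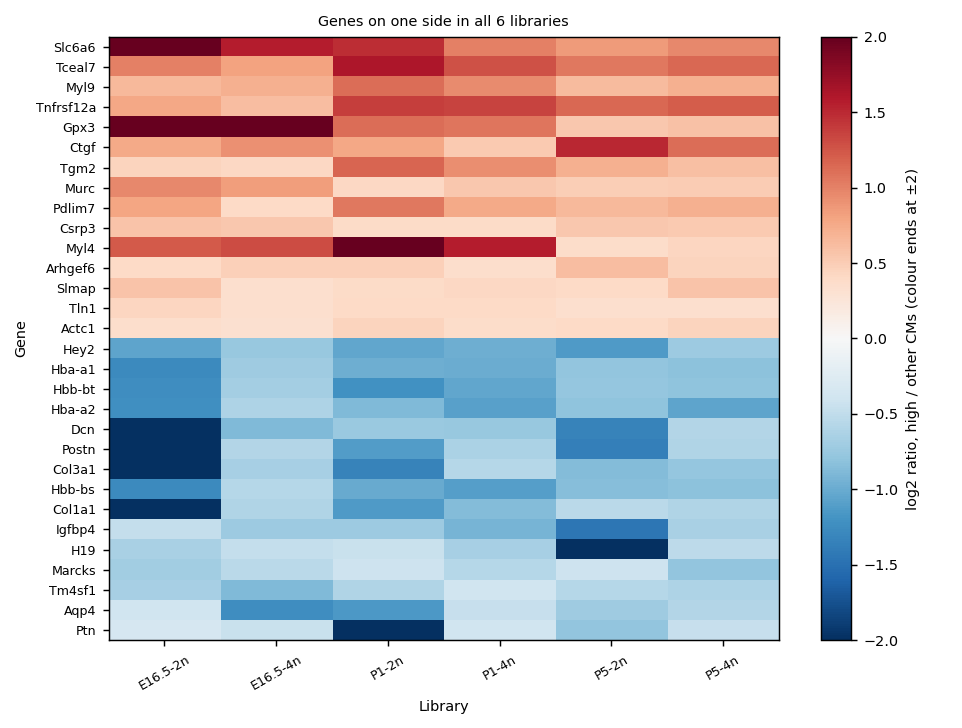
Log2 ratio of high over other CMs for the 15 genes furthest above and the 15 furthest below 0 in all 6 libraries, ranked by the smallest ratio, 1 column per library (colours end at 2 and -2). Slc6a6, Gpx3 and Myl4 reach about 2 in single libraries, and Hey2 lies between -0.73 and -1.14.

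Other genes were furthest from 0 in both libraries of an age. At E16.5 the myosin light chain gene Myl1 was at 251 against 63.8 CPM in 2n and 259 against 49.97 in 4n CMs (log2 1.98 and 2.37), and at P5 its ratios were 0.03 and 0.16. Sarcolipin Sln, a small regulator of the calcium pump in atria, had ratios of 1.56 and 2.09 at E16.5 and of -1.06 in P5-2n. In E16.5-4n the Nppa-led and Ankrd1-led high CMs held 36 and 42 Sln UMIs. By these values, Sln at the level of the other CMs throughout would have stayed under the UMI minimum for a gene there. Its level in the high CMs of E16.5-4n thus helped to bring it in. The actin-binding Tagln had ratios of 1.77 and 1.88, but of -0.63 in P1-4n, the only later library in which it was read. Also higher at E16.5 were Gtsf1 (1.77 and 1.84), the matricellular thrombospondin gene Thbs4 (1.47 and 1.73) and the antisense gene Gm15543, counted with strand (1.39 and 1.91). Lower at E16.5 were the aldolase gene Aldoc (-1.49 and -1.26), the mRNA decay factor gene Zfp36l2 (-1.29 and -1.50), the transketolase gene Tkt (-1.28 and -1.02), Tob2 (-1.23 and -0.93), Ppp1r1b (-1.27 and -0.88) and the AP-1 gene Fosb (-1.08 and -0.89).

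The genes named for all 6 libraries were left out at P1 and P5 too. Of the rest, the genes furthest above 0 at P1 beside Myl1 (1.22 and 1.26) were Adamtsl5 (1.33 and 1.32), Nmrk2, the muscle nicotinamide riboside kinase (1.20 and 1.28), and 3 enzymes of amino acid and folate metabolism. These were Asns, which makes asparagine (1.08 and 1.302), Phgdh, which opens serine synthesis (1.04 and 1.16), and mitochondrial Mthfd2 (1.25 and 0.97), which had -0.42 in E16.5-2n and -0.40 in P5-4n. Furthest below 0 were Tbc1d4, which controls glucose transporter traffic (-1.21 and -1.03), Gin1 (-0.98 and -0.82) and the immediate early genes Dusp1 (-0.91 and -0.94, but 0.18 and 0.19 at E16.5), Zfp36 (-0.87 and -0.89), Fosb (-0.79 and -0.85) and Nr4a1 (-1.07 and -0.77).

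At P5 Nmrk2 was the most abundant of the genes named by age, with 807 against 422 CPM in 2n and 576 against 238 in 4n CMs. Adamtsl5 (0.90 and 1.24), Bex4 (1.08 and 0.98), Bex1 (1.03 and 0.82), the SRF activator gene Abra (0.92 and 0.97) and Ier5 (0.79 and 0.79) were the others. Of the 6 genes furthest below 0 at P5 outside those named for all 6 libraries, 4 act in mitosis. Cdc20, the activator of the anaphase-promoting complex, had ratios of -1.78 and -1.60, the kinetochore protein gene Cenpf of -2.34 and -1.54, Cdca3 of -1.36 and -1.32 and cyclin Ccnb2 of -1.31 and -1.37. The other two were Tppp3 (-1.15 and -1.30) and caveolin Cav1 (-1.44 and -1.12).

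The cycling markers as a list gave the same picture. Of 24 markers of replication and division, 23 were read in P5-4n, all 23 below 0 and 22 at least 1.5-fold lower, against 54.2% and 6.28% of all genes there. In P5-2n 16 were read, all below 0 and 13 at least 1.5-fold lower, against 50.5% and 4.60% of all genes. In E16.5-2n 19 of 20 were below 0 (14 at 1.5-fold) and in E16.5-4n 19 of 24 (3 at 1.5-fold), against 48.8% and 49.5% of all genes below 0 and 3.56% and 3.94% at 1.5-fold. At P1 5 of 8 were below 0 in 2n and 12 of 19 in 4n CMs, 1 at 1.5-fold in each, where 50% and 52.9% of all genes were below 0 and 3.29% and 3.61% at 1.5-fold. The median ratio over the genes read was -0.72, -0.40, -0.18, -0.11, -0.95 and -1.20, while the median over all genes lay between -0.023 and 0.006. Summed over the list, the high CMs held 1147, 4367, 324, 906, 482 and 1371 CPM and the other CMs 1825, 5749, 399, 979, 912 and 2958 CPM. The summed log2 ratio was lowest in P5-4n, at -1.11 (-1.17 to -1.05), and nearest 0 in P1-4n, at -0.11 (-0.18 to -0.05). With every CM left out that held at least 2 UMIs of the markers of any other cell, haemoglobins included, 2293 CMs remained. Only 147 of these were in P5-2n, high and other CMs together, and the ratio there was 0.54. Hmgb2, a chromatin protein and the most abundant marker, was at 259 against 511 CPM in P5-4n and 985 against 1376 in E16.5-4n. Top2a, the topoisomerase of dividing cells, was at 67.3 against 124 CPM in P5-4n and at 240.1 against 293 in E16.5-4n. Cyclin-dependent kinase inhibitors and p53 targets were close in both classes as a sum, with summed ratios of -0.03 to 0.12. At 1.5-fold 1, 0, 1, 1, 0 and 0 of the 8 to 10 read were higher, against 1.11% to 2.45% of all genes. Those lower at 1.5-fold were 0, 1, 0, 2, 2 and 1, against 3.29% to 6.28% of all genes.

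Of 12 atrial genes, 3 to 5 were read in a library. All 4 read in E16.5-2n and all 4 in E16.5-4n were at least 1.5-fold higher, against 2.45% and 2.23% of all genes. After birth 2 of 3, 3 of 5, 2 of 4 and 2 of 3 were above 0, against 45.8% to 50% of all genes. At P1 2 of 3 and 1 of 5 were 1.5-fold higher, against 1.85% and 1.11% of all genes, and at P5 none of those read was. Lower at 1.5-fold were 1 of 5 in P1-4n and 1 of 4 in P5-2n, against 3.61% and 4.60% of all genes. The sum of the list at E16.5 was 6401 against 2899 CPM and 5844 against 2761 CPM. The summed log2 ratio was 1.14, 1.08, 0.85, 0.37, 0.11 and 0.23. Myl4 and the atrial regulatory light chain Myl7 carried most of this sum at E16.5, and Myl7 had ratios of 1.06, 0.93, 1.15 and 0.37 up to P1 and of -0.07 and -0.18 at P5. Of 11 trabecular genes, 4 were read in E16.5-2n and 2 in each other library. In E16.5-2n Bmp10, a growth factor of trabeculae and atria, was at 49.2 against 9.88 CPM (2.32), the connexin gene Gja5 at 52.95 against 16.9 (1.65) and Irx3 at 27.7 against 12.6 (1.14), while Kcne1, a potassium channel subunit gene, was at 230.7 against 268 (-0.22). Bmp10 and Irx3 passed the UMI minimum for a gene to be read in E16.5-2n only narrowly. At the level of the other CMs throughout, both would have stayed under it, so their level in the high CMs helped to bring them in. At P5 Irx3 had ratios of -0.04 in 2n and -0.89 in 4n CMs. The summed trabecular ratio ran from 0.20 in P5-2n to 0.68 in E16.5-4n, with Kcne1 the most abundant. Conduction genes had ratios of 0.63, 0.18, -0.10, 0.17, -0.42 and -0.19 over their sum. The 7 compact wall genes had summed ratios of -0.09 to 0.06. Of the 6 read in each library, 3, 4, 5, 4, 4 and 3 were below 0 and 2, 1, 2, 1, 2 and 1 at 1.5-fold, against 48.8% to 54.2% and 3.29% to 6.28% of all genes. Their median ratio was -0.05, -0.36, -0.30, -0.19, -0.26 and 0.01. Within them Hey2 was lower in every library, and cyclin Ccnd2 was higher in every library (0.30 to 0.54).

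Among contractile genes, the 10 fetal sarcomere isoforms were higher as a sum in all 6 libraries (0.18 to 0.33). Their most abundant gene, slow skeletal troponin I Tnni1, differed by only -0.08 to 0.04. Myh7, the fetal beta myosin heavy chain, was at 3675, 3530.3, 1320.3, 1057, 313 and 249 CPM in the high CMs and at 3799, 3345, 908, 775, 169 and 157 CPM in the other CMs. Its log2 ratio was -0.05 and 0.08 at E16.5 and widest at P5 (0.89 and 0.66), where the gene was lowest in all CMs. The 12 mature sarcomere genes had summed ratios of -0.04 to 0.11, and skeletal muscle isoforms of -0.07 to 0.09.

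The 16 stretch and Z-disc stress genes, which leave out Ankrd1 and Xirp2, were higher as a sum by 0.26 to 0.34 in all 6 libraries. Of 13 or 14 read, 10 to 13 were above 0 in each library and 1 to 3 below, where 45.8% to 51.2% of all genes were above 0. At 1.5-fold 0, 0, 2, 0, 5 and 1 of them were higher, against 1.11% to 2.45% of all genes. Csrp3 was among them, with the small heat shock protein gene Cryab (0.23 to 0.36) and the LIM protein gene Fhl1, which had ratios of -0.04 in E16.5-4n and 0.47 to 0.96 elsewhere. Fhl2 was below 0 in every library (-0.26 to -0.02). SRF targets had summed ratios of 0.12 to 0.36, led by the tropomyosin gene Tpm1. In E16.5-4n and P1-4n 8 of the 15 read were below 0, near the 49.5% and 52.9% of all genes, and the median ratio was -0.04 and -0.07. In each of these libraries 2 were 1.5-fold lower, against 3.94% and 3.61% of all genes, and 2 were 1.5-fold higher, against 2.23% and 1.11%. In the other libraries 4 of 14, 3 of 11, 3 of 12 and 2 of 14 were 1.5-fold higher. The shares of all genes there were 2.45%, 1.85%, 1.79% and 1.18%. In P5-2n 2 of the 12 read were 1.5-fold lower, against 4.60% of all genes. YAP and TEAD targets had summed ratios of 0.22, 0.22, -0.06, -0.17, 0.37 and 0.33. In E16.5-4n 3 of the 5 read were below 0 (median -0.01), against 49.5% of all genes.

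As a sum, the partners of the natriuretic peptides themselves differed little. Of 21 genes of natriuretic and angiotensin signalling 9 or 10 were read, with summed ratios of -0.07 to 0.16. In E16.5-2n 1 of 9, and in E16.5-4n and P5-2n 1 of 10, was 1.5-fold higher. The shares of all genes were 2.45%, 2.23% and 1.79%. Corin, the protease that cleaves the precursor of atrial natriuretic peptide, was at 47.9 against 24.5 CPM in E16.5-2n and 46.9 against 24.6 in E16.5-4n, with ratios of -0.39 to 0.13 from P1 on. The calcineurin regulator Rcan1 was above 0 in every library, 0.29 to 0.69. The receptor genes Npr1 and Npr3 stayed under the 200 UMIs needed. Of the transcription factors known at these promoters, Gata4 and Nkx2-5 had ratios within 1.5-fold. Gata4 had ratios of -0.35 to 0.30, and Nkx2-5 0.23 and 0.29 at E16.5 and -0.19 to -0.04 later.

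Calcium cycling and ion channel genes were higher as a sum at E16.5 (0.06 and 0.18) and lower at P1 (-0.24 and -0.19) and P5 (-0.14 and -0.06). Cardiac calsequestrin Casq2 was higher in all libraries, by 0.70 and 0.76 at E16.5 and by 0.16 to 0.27 after birth. The calcium pump gene Atp2a2 was lower in all of them (-0.47 to -0.10).

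Metabolic and stress lists differed by small amounts, with exceptions at P1. Mitochondrial transcripts had summed ratios of -0.16 to -0.06, fatty acid oxidation of -0.13 to -0.01, nuclear genes of the respiratory chain of -0.10 to 0.01, glycolysis of 0.02 to 0.09 and heat shock genes of -0.01 to 0.08. The 21 ribosomal protein genes were all below 0 in both E16.5 libraries, where 48.8% and 49.5% of all genes were. In the later libraries 19 to 21 were above 0, where 45.8% to 50% of all genes were. As a sum these genes differed by at most 0.11 in either direction. Amino acid stress genes were lower at E16.5 (-0.29 and -0.23) and higher at P1 (0.57 and 0.52). At P1 all 7 read in 2n and 7 of 8 in 4n CMs were above 0, 4 of them at 1.5-fold in each, where 50% and 47.1% of all genes were above 0 and 1.85% and 1.11% were 1.5-fold higher. Asns, Phgdh and Mthfd2 were among these, while Atf4, the factor above this response, had a ratio of 0.11 in both P1 libraries. Immediate early genes were lowest at P1 as well. All 14 read were below 0 in both P1 libraries, 6 and 7 of them at 1.5-fold. Of all genes there, 50% and 52.9% were below 0 and 3.29% and 3.61% were 1.5-fold lower. The summed ratio was -0.53 and -0.49 there against -0.21 to -0.06 elsewhere. Fos was at 123 against 186 CPM in P1-2n and at 200.2 against 278 in P1-4n. Hypoxia genes had summed ratios of -0.13 and -0.18 at E16.5 and of 0.11 to 0.16 later, and at P1 3 of 7 in 2n and 4 of 10 in 4n CMs were above 0, against 50% and 47.1% of all genes. Secreted and matrix genes had summed ratios of 0.53 and 0.22 at E16.5 and -0.16 to 0.18 later, and sex-linked genes of -0.17 to -0.04. In P1-4n 3 of the 11 secreted and matrix genes read were above 0, against 47.1% of all genes.

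**Figure D5:**
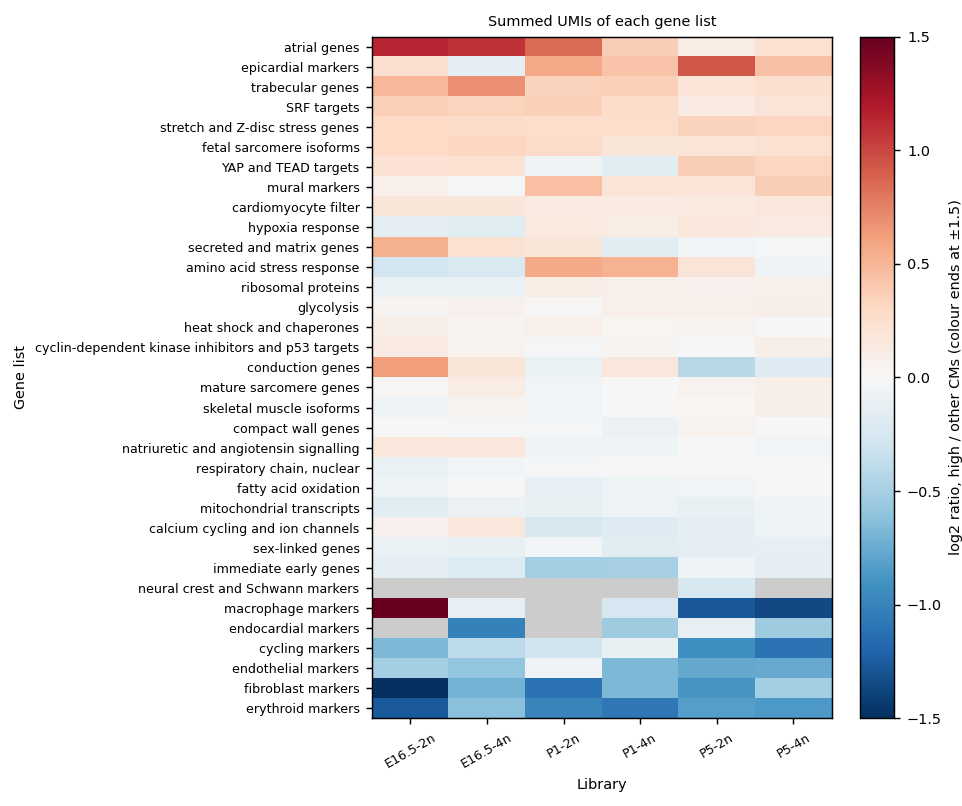
Log2 ratio of high over other CMs for the summed UMIs of each gene list (rows) in each library (columns), colours ending at 1.5 and -1.5, grey where a list held under 200 UMIs. Atrial genes are highest at E16.5 (1.14 and 1.08), and cycling, fibroblast and erythroid rows are below 0 in all 6 libraries.

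Markers of other cells differed with the class. All 10 fibroblast markers had at least 1 UMI in the CMs of every library, and the 5 to 8 read were all below 0 in each, against 48.8% to 54.2% of all genes. Their sum was at 31.5, 540.4, 74.6, 656, 162 and 282 CPM in the high CMs and at 156, 883, 161, 1049, 299 and 403 CPM in the other CMs, with collagen Col3a1 the most abundant. This group held Dcn, Postn, Col3a1 and Col1a1 of the genes named above, and Pdgfra had 0 UMIs in the high CMs of E16.5-2n. Haemoglobin transcripts were lower too. The 7 erythroid markers summed to 2300.1, 7031, 1016, 1478, 1334 and 954 CPM in the high CMs and to 5509.7, 10858, 2023, 3104, 2357 and 1737 CPM in the other CMs. The near-identical pairs Hba-a1 with Hba-a2 and Hbb-bs with Hbb-bt cannot be told apart with certainty by short tags. Endothelial markers, led by Fabp4, had summed ratios of -0.06 in P1-2n and of -0.77 to -0.51 elsewhere, and endocardial markers of -1.21 to -0.12 on 8 to 74 UMIs in the high CMs. The median CM of either class held no UMI of the fibroblast, endocardial or macrophage lists.

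Macrophage markers went both ways, with 81, 49, 37, 76, 12 and 10 UMIs in the high CMs against 145, 433, 125, 680, 249 and 215 in the other CMs, and log2 ratios of 2.19 and 1.12 in the 2n CMs of E16.5 and P1 against -1.35 to -0.12 elsewhere. In E16.5-2n nearly all of it was Lyz2, at 50.4 against 6.56 CPM, while C1qb had 0 UMIs in the high CMs. In the high CMs of that library chosen without Nppa the ratio of the list was -0.26. Mural markers had summed ratios of -0.01 to 0.45, set by Acta2, which fetal CMs also express. The median ratio over the 1 to 4 read was 0.45, 0.19, 0.44, -0.20, -0.75 and -0.23. At 1.5-fold 0, 1, 0, 1, 1 and 1 of them were lower, against 3.29% to 6.28% of all genes. In each E16.5 library 1 was 1.5-fold higher, against 2.45% and 2.23% of all genes, and later none was. Epicardial markers, led by Tbx18 or at P5 by Krt18, had ratios of -0.14 to 0.93 on 66 to 141 UMIs, and neural crest markers -0.42 to 0.48 on 8 to 23 UMIs. With every CM left out that held at least 2 UMIs of the fibroblast, endothelial or macrophage markers, 22240 CMs remained. No gene was then 1.5-fold lower in all 6 libraries, and of the 15 lower genes named above 5 were still read in all 6, 3 of these below 0 in each. Of the 15 higher genes 11 were read and all 11 were above 0, but none of the 4 genes named as 1.5-fold higher in all 6 libraries was so here. Slc6a6 and Tceal7 fell under 200 UMIs in at least 1 library, Myl9 had 0.58 in P5-2n and Tnfrsf12a 0.54 in E16.5-4n, just under 1.5-fold. The 3 genes that were 1.5-fold higher in all 6 libraries were Ctgf, Gpx3 and Myl4. The part of free RNA or attached cells in the lower genes was not tested further.

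The Nppa-led and Ankrd1-led high CMs were set side by side as a description, chosen after their values were seen. Slc6a6 was higher in the Nppa-led CMs, by log2 ratios of 1.80, 2.62, 1.61, 1.03, 0.99 and 0.24, the last with an interval that reached 0 (-0.54 to 0.98). Tnfrsf12a was lower in them in every library (-1.26, -1.03, -1.33, -1.08, -0.71 and -0.69), as were Ctgf (-1.92 to -0.49, with an interval that reached 0 in E16.5-4n), Slmap (-1.10 to -0.47) and Csrp3 (-0.50 to -0.21). The stretch and Z-disc list as a sum was lower in the Nppa-led CMs in all 6 libraries (-0.35 to -0.12). Trabecular genes were higher in them at E16.5, by 0.67 and 0.43, and differed by -0.04 to 0.11 later. Atrial genes as a sum differed by only 0.06 and 0.08 at E16.5. Of these, Myl4 was higher in the Nppa-led CMs there (0.25 and 0.32) and Myl7 lower (-0.57 and -0.93). Sln was lower in the Nppa-led CMs there too (-4.41 and -1.47). Tceal7 was lower in the Nppa-led CMs up to P1 (-1.75 to -1.13) and at P5 had ratios of 0.52 and 0.65, with intervals that reached 0. Markers of other cells moved with this split too. Erythroid markers had ratios of Nppa-led over Ankrd1-led CMs of 0.56, 0.60, 0.69 and 0.20 up to P1 and of -0.11 and -0.03 at P5. Macrophage markers had 2.03 and 1.89 at E16.5 on 72 and 44 UMIs in the Nppa-led CMs. Endothelial markers had -0.84 in the 2n CMs of E16.5 and 1.20 and 0.71 at P1, fibroblast markers 1.11 in P1-4n, and mural markers -0.94 to -0.33 in all 6 libraries. Their part in the other differences between these CMs was not tested.

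Across single CMs thinned to 1000 UMIs, no gene followed the 8-gene share closely. The highest median Spearman correlation over the 6 libraries, among 4845 genes, was 0.21 for Actc1, followed by Myl9 and Csrp3 (0.16 each), Tpm1 (0.15), Myl4 (0.14), Tnfrsf12a (0.13), Cryab (0.10), Tnnc1 (0.095), Bex1 (0.084) and Myl12a (0.080). In counts this sparse such values are a description of rank order and no finding. They depend on abundance as well, since an abundant gene is seen in more CMs.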

How the data were processed

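The deposited matrices hold raw UMI counts per gene and cell, as the authors made them with Chromium Single Cell 3' v2 libraries and, per the submitters' processing notes, Cell Ranger, STAR and the mouse build mm10 (GRCm38), with Seurat 2.3.0 named for later steps. A table of background genes and a table of the authors' own comparison of G2/M cells between E16.5 and P5 were not used.

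The 8 genes, the gene lists and the tests were chosen with earlier results of these data known. From the counts, a CM needed at least 1 UMI of each of 4 marker genes, and the 10% of CMs of each library with the largest 8-gene share were the high CMs. The UMIs of each class were pooled and divided by the UMIs outside the 8 genes. The 95% interval of a log2 ratio is the exact (Clopper-Pearson) binomial interval of the split of a gene's UMIs and covers counting error only. With 1 library per group there was no test, and depth and library cannot be told apart from age and ploidy. Genes needed 200 UMIs in the CMs of a library and were counted as apart at 1.5-fold. Named genes were the 15 per direction with the largest smallest ratio over the 6 libraries, and 6 per age and direction by the same rule within an age. The genes of the first set were left out of the second. Of 427 list genes, 2 symbols were not found in the tables. Of the list genes, 1 is not reported here. Alternatives were another share of CMs, score, filter, gene minimum, scaling and depth. The scripts, written in Python 3.11.15 with numpy 2.4.6, scipy 1.17.1 and pandas 2.3.3, were tested on simulated data.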

Additional observations from a re-analysis of the deposited data

Results flagged for a closer look

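Gene lists whose summed log2 ratio of high over other CMs had opposite signs at different ages, with every counting interval beyond 0, were 4. The difference between ages was not tested, since each age had 1 library per ploidy. Hypoxia response genes had -0.134 and -0.183 in the 2n and 4n CMs of E16.5 against 0.145 and 0.112 at P1, where fewer genes were above than below 0, and 0.16 and 0.136 at P5. Ribosomal protein genes had -0.094 and -0.0974 at E16.5 against 0.111 and 0.074 at P1 and 0.0688 and 0.071 at P5. Calcium cycling and ion channel genes had 0.0596 and 0.175 at E16.5 against -0.24 and -0.193 at P1 and -0.143 and -0.0646 at P5. Amino acid stress genes had -0.29 and -0.226 at E16.5 against 0.569 and 0.521 at P1, the widest contrast of the 4.

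UMIs of the 8 genes also stood in cells that failed the CM filter. The share was 0.172% of the UMIs of 83 cells in the 2n library of E16.5 (155 UMIs) and 0.196% of 108 cells in the 4n library (282 UMIs). At P1 it was 0.136% of 129 cells (180 UMIs) and 0.031% of 30 cells (15 UMIs), and at P5 0.0412% of 49 cells (28 UMIs) and 0.0712% of 24 cells (23 UMIs). The other CMs of the same libraries held 0.307%, 0.229%, 0.134%, 0.123%, 0.232% and 0.211%, so only the cells outside the filter at P1 in the 2n library reached the level of the CMs below the limit.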

How the results depend on the processing

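No paired test was run. High and other CMs are paired within each of the 6 libraries. The values of the CMs themselves set these classes apart, so that this difference carries no test. Ages and ploidies could not be paired, with 1 library each. The 8 rule genes had a median log2 ratio of 1.83 over libraries and genes, 1.41 when each was measured in CMs chosen on the 7 other genes and 1.77 on UMIs the choice had not used. Summed over libraries, 617 genes were 1.5-fold higher and 1473 lower. The scaling to all UMIs, the mean over CMs and the score without Acta1 kept every count of genes within 1.5 times. Leaving out 1 library at a time gave 472 to 499 genes above 0 and 399 to 447 below 0 in the other 5, with 4 to 5 and 6 to 7 genes 1.5-fold higher and lower in all of them. With 2 UMIs of each marker required, 3 genes were 1.5-fold lower in all 6 libraries.

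A minimum of 1000 UMIs per gene left 93 higher and 162 lower genes, 2 and 3 in all 6 libraries, with 181 above and 95 below 0, since fewer genes were read. A minimum of 50 UMIs gave 2456 and 5787, with 544 below 0 in all 6 libraries. The top 5% (1537 CMs) gave 1312 higher and 2941 lower genes and 13 pairs of list and library 1.5-fold higher against 7, and the top 20% (6147 CMs) gave 289 and 660, with 2 and 0 in all 6 libraries. Thinning to 1000 UMIs, which leaves fewer genes over the minimum, gave 363 and 590 genes, 1 and 0 in all 6 libraries, with 128 above and 77 below 0. CMs chosen on each random part of their UMIs and measured on the other, both directions pooled, gave 583 higher and 1461 lower genes, with 391 above and 304 below 0, 4 higher and 2 lower in all 6 libraries. In 1 direction alone 3003 genes were read, with 435 higher, 911 lower and 218 above 0 in all 6 libraries, 2 higher and 1 lower in all of them. The split across all genes, the narrower filter on other cells and the score without Ankrd1 were chosen after seeing the data. Without Nppa in the score 9 genes were higher and 0 lower in all 6 libraries, and without Ankrd1 1 and 1. The cause of these last shifts was not tested.

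Leaving out CMs with markers of any other cell left 80 higher and 113 lower genes, 0 and 0 in all 6 libraries, with 12 above and 7 below 0 in all 6. Under this setting 152 to 1556 genes were read per library and 144 in all 6. It left 5 list pairs 1.5-fold lower against 21, and the cause of that was not tested. Leaving out CMs with fibroblast, endothelial or macrophage markers gave 900.0 lower genes, 0 of them in all 6 libraries, and 3 genes higher in all 6, none of them among the 4 found with all CMs. In all 6 libraries 251 genes were then above and 148 below 0, and 10 list pairs were 1.5-fold lower.

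The sign turned in 25 of 1880 values of the 30 named genes over the alternatives and in 164 of 2257 summed list values. Of the 15 higher and 15 lower named genes, 13 and 13 kept their sign in all 6 libraries with the top 5%, 14 and 14 with the top 20%, 11 and 14 without Nppa and 14 and 10 without Ankrd1. Among values at least 1.5-fold from 0, 15 turned. Without CMs with markers of other cells these were cycling markers in P5-2n (0.54, where 147 CMs were left). Without CMs with fibroblast, endothelial or macrophage markers they were endothelial markers in P5-4n (0.039), Hba-a2 in P5-2n (0.014) and H19 in P1-4n (0.13). Without Nppa they were macrophage markers in E16.5-2n (-0.26), Slc6a6 in P1-4n (-0.040) and Arhgef6 in P5-2n (-0.15). Without Ankrd1 they were erythroid markers in E16.5-4n (0.011), Ctgf in P1-2n (-0.042), Hba-a2 in E16.5-4n (0.034), and in P5-4n Col1a1 (0.047), Igfbp4 (0.24) and Tm4sf1 (0.15). Col1a1 in P5-4n also turned with the top 20% (0.0051041) and after thinning (0.024). The cause was not tested. Depth limits the rare genes, since a gene at the minimum of 200 UMIs rests on few of them in the high CMs.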
